A study of Mus musculus with 4 samples.

Results

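The genes described here encode 10 molecules by which fibroblasts are met by immune cells. They were chosen by name: Vcam1 and Icam1, Cd47 and Cd24a, Cd274, Cd276 and Cd80, Pvr, and the lectin genes Lgals1 and Lgals9. The choice was made with earlier results of these data known. All 10 were on the array, with 28 probe sets annotated to 1 of them alone, out of 18193 genes and 45037 probe sets measured. Expression was measured on 4 Affymetrix arrays, 1 for each of 4 groups of mouse embryonic fibroblasts (MEF). The p65-/- cells lack Rela, which encodes the NF-kB subunit p65, and the p65+/+ cells carry it. The vector pBabe-HRASG12V-Hygro had been used to bring oncogenic HRASG12V into all of them, controls included. For each genotype, tumour cells were compared with pre-injection cells. Tumour cells came from a tumour grown in a SCID mouse, were released with collagenase, and were then grown under hygromycin for 2 weeks. Pre-injection cells were the cultured Ras cells from before injection.

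SCID mice lack mature T and B lymphocytes but keep natural killer cells and macrophages, so any contact with lymphocytes of the adaptive system was missing in the host. The cells were profiled in culture and not in the tumour. The labels do not state the number of lines, clones, mice or tumours, so genotype and cell line cannot be told apart. Each group is a single array, so nothing could be tested, no replicate error exists, and every difference below is a ratio between 2 arrays. Signals are the deposited linear intensities, and a level can be compared between arrays but not between genes. The floor of an array was its median signal, between 87.8 and 93.4. An array under its floor was set to it, which makes the fold a lower bound, written "at least". With both arrays under the floor no fold was taken. Counts are of genes at 2-fold or more. In bulk cultures, fewer cells with a transcript and less transcript per cell cannot be told apart.

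These molecules act by touch. Vcam1 and Icam1 are adhesion proteins of the immunoglobulin family that hold leukocytes through the integrins VLA-4 and LFA-1, and both are textbook targets of NF-kB. Cd47 binds SIRP-alpha on macrophages and lowers their uptake of the cell, and Cd24a, a small glycoprotein anchored by a lipid, is read by the receptor Siglec-G in mice. Cd274 (PD-L1), Cd276 (B7-H3) and Cd80 (B7-1) belong to the B7 family that tunes T cells. Pvr (CD155) is read by the receptors DNAM-1, TIGIT and CD96 on natural killer and T cells. Lgals1 and Lgals9 encode galectins, which bind sugars of surface glycoproteins.

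The RefSeq promoter table of GRCm38.p6 held 6 of the 10 genes, Icam1, Cd276, Lgals9, Cd80, Cd47 and Cd274. Vcam1, Cd24a, Pvr and Lgals1 had no entry and were not searched. The 250 bases before each start were searched for motifs of NF-kB and of interferon signalling. The NF-kB consensus was found in 0 of the 6 genes and in 5.0% of all 32851 promoters in the table. The REL consensus, a related pattern that can overlap it, was found in 2.76% of all promoters and, of these genes, in Icam1, 154 to 145 bases before the start. The gamma-activated site TTCNNNGAA was found in 7.02% of all promoters and again in Icam1, 42 to 34 bases before the start. The core of the interferon-stimulated response element was found in 2.98% of all promoters and in Lgals9, on the other strand, 55 to 46 bases before the start. Both strands were searched. A match describes the letters and not a bound site. Icam1 and Lgals9 are shown because they hold the matches, and Cd47 because it had large differences and held no match. Cd47 had 2 overlapping entries, and the first is shown. Capitals mark the matches, and the regions are chr9:21015690-21015939 on the plus strand for Icam1, chr11:78984925-78985174 on the minus strand for Lgals9 and chr16:49855404-49855653 on the plus strand for Cd47.
Icam1: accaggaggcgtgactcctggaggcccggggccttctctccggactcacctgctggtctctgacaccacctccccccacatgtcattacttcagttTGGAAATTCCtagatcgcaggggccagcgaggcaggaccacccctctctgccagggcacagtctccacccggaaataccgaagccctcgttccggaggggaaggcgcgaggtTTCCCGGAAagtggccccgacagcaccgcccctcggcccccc
Lgals9: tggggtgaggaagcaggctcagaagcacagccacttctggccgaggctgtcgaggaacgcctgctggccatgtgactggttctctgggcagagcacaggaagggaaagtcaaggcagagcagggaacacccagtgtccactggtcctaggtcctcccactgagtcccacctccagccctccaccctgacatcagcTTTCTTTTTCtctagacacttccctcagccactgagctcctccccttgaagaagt
Cd47: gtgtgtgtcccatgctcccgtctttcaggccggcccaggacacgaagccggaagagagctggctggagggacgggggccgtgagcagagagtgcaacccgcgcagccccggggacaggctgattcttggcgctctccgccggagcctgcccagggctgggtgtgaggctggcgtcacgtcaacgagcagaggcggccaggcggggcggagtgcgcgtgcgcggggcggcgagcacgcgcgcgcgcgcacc

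Rela, which checks the genotype labels, had signals of 209 and 214 in p65-/- tumour and pre-injection cells, against 1457 and 1479 in p65+/+ tumour and pre-injection cells. All 8 fibroblast markers, among them the collagen gene Col1a1 and the filament gene Vim, were above the floor on every array. Thy1 only just passed it in p65-/- pre-injection cells, with 88.6 against 1126 in p65+/+ pre-injection cells. Before injection 2 of the 8, Thy1 and Pdgfra, were lower in p65-/- cells and 0 higher, beside 18.1% and 2.11% of all genes. In tumour cells 3 were lower, Pdgfra, Thy1 and Col3a1, and 2 higher, Col1a1 and Fn1, beside 5.62% and 2.74%. The p65-/- pre-injection array stood apart. On it 11153 probe sets reached a signal of 200, against 13015 to 13419 elsewhere, and across 10046 genes its log2 signals had a correlation of 0.804 to 0.866 with the other arrays, which had 0.929 to 0.976 among themselves. In p65-/- against p65+/+ pre-injection cells 18.1% of 12597 genes compared were lower and 2.11% higher. In p65-/- tumour against pre-injection cells 13.9% of 12444 were higher and 1.5% lower. The share of lower genes among the 2-fold differences before injection, 89.6%, was 63.6% after quantile normalization and 65.2% after scaling to the 75th percentile. In the p65-/- tumour change that share was 9.73%, and 26.3% and 24.5% under the same settings. The median of all genes shifted with them, to 0.24 and 0.35 on the log2 scale before injection (deposited scale -0.02) and to -0.18 and -0.25 in the p65-/- tumour change (deposited scale 0.03). In the comparisons without this array, 2.74% of 11988 genes were higher and 5.62% lower in p65-/- against p65+/+ tumour cells, and 0.991% of 11706 were higher and 0.777% lower in p65+/+ tumour against pre-injection cells.

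The members fell into 3 kinds by level. Lgals1, Cd47, Vcam1, Cd24a and Pvr were above the floor on all 4 arrays. Cd276 was above it on 3 arrays, and Lgals9 and Cd80 on 2 each. Cd274 and Icam1 were under the floor on all 4. Most of the movement lay in Cd24a, Cd276, Cd47 and Vcam1. By the probe set that stands for the gene, Lgals1 and Pvr stayed within 2-fold in every comparison.

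**Figure D1:**
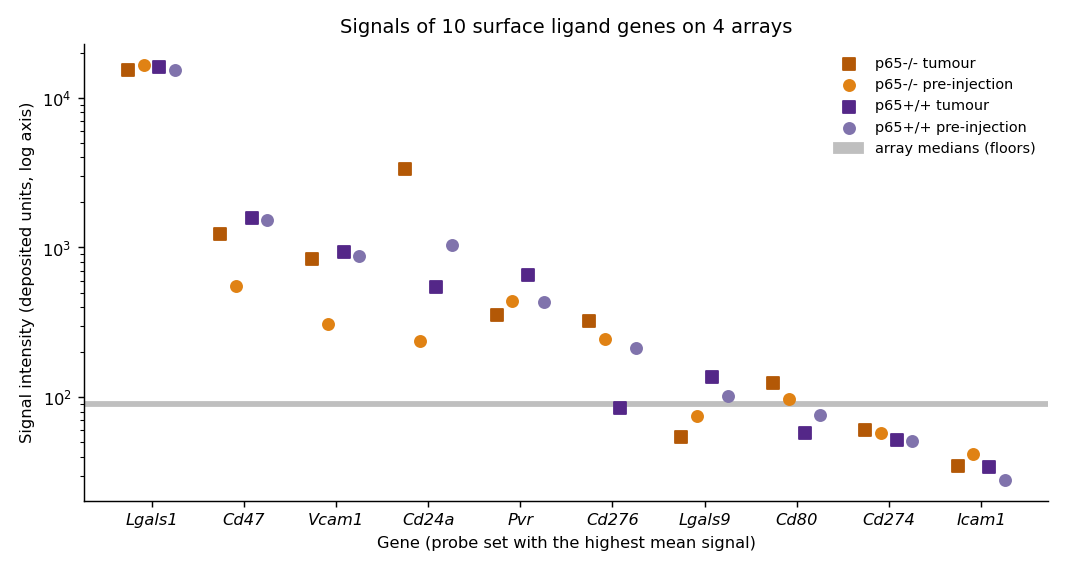
Signal intensity (log axis, deposited units) of the 10 genes on the 4 arrays, each gene by the probe set that stands for it, with squares for tumour and circles for pre-injection cells; the grey band spans the array medians used as floors. Cd24a ranges from 238 to 3335, Cd47 and Vcam1 are lowest in p65-/- pre-injection cells, and Cd274 and Icam1 lie under the band on every array.

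Of the leukocyte adhesion genes, Icam1 gave no usable signal and Vcam1 differed on a single array. Vcam1 had a signal of 834 in p65-/- tumour cells, 308 in p65-/- pre-injection cells, 935 in p65+/+ tumour cells and 875 in p65+/+ pre-injection cells. The p65-/- pre-injection array was thus the low one and the other 3 lay close together. Vcam1 was 2.85-fold lower in p65-/- than in p65+/+ pre-injection cells (log2 difference -1.51) and 2.71-fold higher in p65-/- tumour than in p65-/- pre-injection cells (1.44). In tumour cells the genotypes differed by 1.12-fold (-0.17), a difference that was 0.02 after quantile normalization, and the p65+/+ tumour change was 1.07-fold (0.10). Its 3 probe sets had the same sign before injection, from -1.51 to -0.65, and 2 of the 3 passed 2-fold. The pooled standard deviation between probe sets of a gene was 0.48 for that comparison, 0.32 for the genotype difference in tumour cells, 0.40 for the p65-/- tumour change and 0.19 for the p65+/+ tumour change. The standard deviation of the median gene was smaller, at 0.21, 0.13, 0.20 and 0.08 in that order. Probe sets of a gene share the same RNA and array and are not replicates.

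How far Vcam1 went with the p65-/- pre-injection array as a whole can be read from its rank. Of all genes compared before injection, 9.76% were lower in p65-/- cells by as much as Vcam1 or more. In the p65-/- tumour change 6.75% were higher by as much or more. When p65-/- tumour cells were set against p65+/+ pre-injection cells instead, a comparison that mixes genotype with tumour state, the log2 difference of Vcam1 was -0.07. The part of that array in the Vcam1 difference was not tested further.

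Icam1 had signals of 35.0 and 42.0 in p65-/- tumour and pre-injection cells, against 34.3 and 28.0 in p65+/+ tumour and pre-injection cells. All 4 lay under the floors, and its single probe set gives no fold. A signal under the floor does not show that the transcript was missing. Icam1 is also the gene whose promoter, shown above, held the REL consensus.

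Cd24a and Cd47 face macrophages, and Cd24a had the largest differences of the 10 genes in 3 of the 4 comparisons. Cd24a had a signal of 3335 in p65-/- tumour cells and 238 in p65-/- pre-injection cells, against 546 in p65+/+ tumour cells and 1044 in p65+/+ pre-injection cells. The p65-/- arrays were thus the highest and the lowest of the 4, with the p65+/+ arrays between them. Cd24a was 14.0-fold higher in p65-/- tumour than in p65-/- pre-injection cells (log2 difference 3.81), and 8 of 12444 genes were higher by as much or more, Cd24a included. In p65+/+ tumour cells it was 1.91-fold lower than before injection (-0.93), just short of 2-fold, where 0.948% of genes were lower by as much or more. The tumour changes of the genotypes thus had opposite signs and differed by 26.8-fold (4.74), a difference of differences that was not tested.

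Seen by genotype, Cd24a changed side with the tumour. It was 4.39-fold lower in p65-/- than in p65+/+ cells before injection (log2 difference -2.13) and 6.10-fold higher in p65-/- than in p65+/+ tumour cells (2.61). Only 29 of 11988 genes were higher by as much or more in that tumour comparison, Cd24a included. The other 2 probe sets of Cd24a gave the same 4 signs. The brighter of them had signals of 2731 in p65-/- tumour and 276 in p65-/- pre-injection cells, against 548 in p65+/+ tumour and 962 in p65+/+ pre-injection cells. The dimmer, which carries a suffix for possible cross-hybridization, had 937 in p65-/- tumour and 105 in p65-/- pre-injection cells, against 215 in p65+/+ tumour and 360 in p65+/+ pre-injection cells. Across the 3, the p65-/- tumour change ran from 3.16 to 3.81 and the p65+/+ tumour change from -0.93 to -0.74.

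Cd47 followed another course, close to that of Vcam1. It had a signal of 1231 in p65-/- tumour cells and 556 in p65-/- pre-injection cells, against 1578 in p65+/+ tumour cells and 1534 in p65+/+ pre-injection cells. Again the p65-/- pre-injection array was the low one. Cd47 was 2.76-fold lower in p65-/- than in p65+/+ pre-injection cells (log2 difference -1.46) and 2.21-fold higher in p65-/- tumour than in p65-/- pre-injection cells (1.15). In tumour cells the genotypes differed by 1.28-fold (-0.36), and the p65+/+ tumour change was 1.03-fold (0.04), a value whose sign turned after quantile normalization (-0.02). Before injection 10.4% of all genes were lower by as much as Cd47 or more, and in the p65-/- tumour change 11.4% were higher by as much or more. The p65-/- tumour change of Cd47 was under 2-fold after quantile normalization (0.78), with the 75th percentile of the arrays made equal (0.86) and under cyclic loess (0.88).

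Of the 5 probe sets of Cd47, 3 were above the floor on every array, and these 3 gave log2 differences from -1.87 to -1.46 before injection and from 1.15 to 1.61 in the p65-/- tumour change. Another reached the floor only in p65-/- pre-injection cells, with a signal of 106, and had small differences of the opposite sign (0.18 and -0.19). The last stayed under it. Between p65-/- tumour and p65+/+ pre-injection cells the log2 difference was -0.32.

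**Figure D2:**
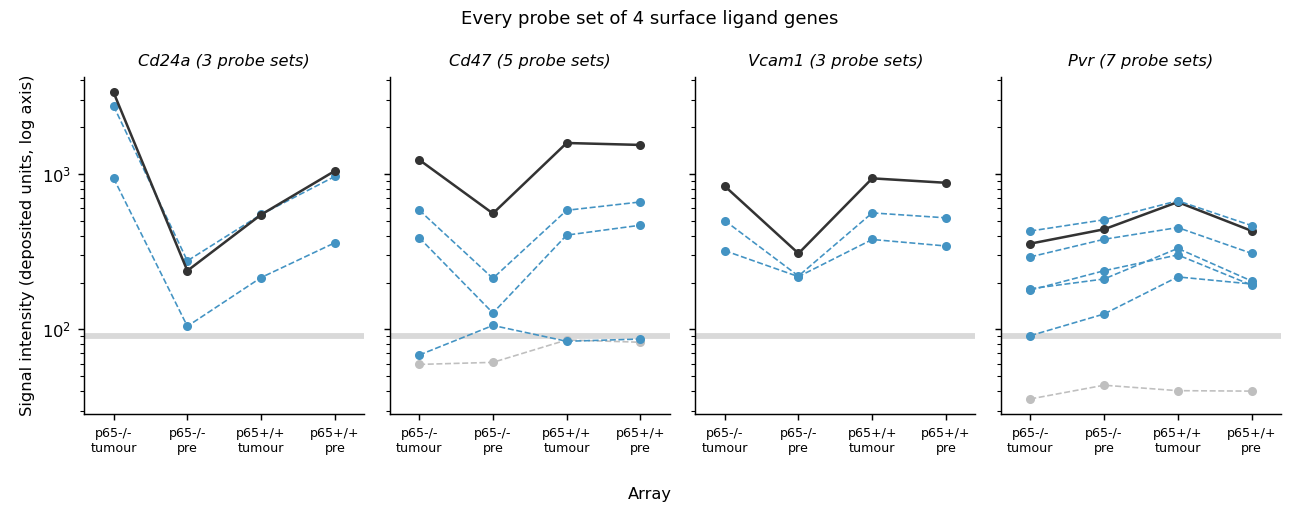
Signal intensity (log axis, deposited units) of every probe set of Cd24a, Cd47, Vcam1 and Pvr on the 4 arrays; the black line is the probe set that stands for the gene, blue dashed lines are other probe sets that reach the floor (grey band) on at least 1 array, and pale grey lines never do. All 3 Cd24a probe sets peak in p65-/- tumour cells, and the bright Cd47 and Vcam1 probe sets dip in p65-/- pre-injection cells.

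Of the B7 family genes among the members, Cd276, Cd274 and Cd80, only Cd276 was clearly above the floor, and not on every array. It had a signal of 321 in p65-/- tumour cells and 244 in p65-/- pre-injection cells, against 84.7 in p65+/+ tumour cells and 213 in p65+/+ pre-injection cells. The p65+/+ tumour array was the low one, under its floor of 92.5. Cd276 was at least 2.30-fold lower in p65+/+ tumour than in p65+/+ pre-injection cells (log2 difference -1.20), where 0.521% of genes were lower by as much or more. It was at least 3.47-fold higher in p65-/- than in p65+/+ tumour cells (1.80), where 0.701% of genes were higher by as much or more. Before injection the genotypes differed by 1.15-fold (0.20), and the p65-/- tumour change was 1.31-fold (0.39), both within the pooled spread between probe sets of a gene. Cd276 has 1 probe set, so no second measurement of it was at hand. With the floor at the 70th percentile of each array the Cd276 bounds shrank to 0.71 between genotypes in tumour cells and -0.12 for the p65+/+ tumour change.

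Cd80 lay at the edge of detection. Its brightest probe set had a signal of 125 in p65-/- tumour cells and 97.0 in p65-/- pre-injection cells, against 57.8 in p65+/+ tumour cells and 76.4 in p65+/+ pre-injection cells. The p65-/- arrays were above their floors and the p65+/+ arrays under theirs. The bounds were at least 1.35-fold higher in p65-/- than in p65+/+ tumour cells (log2 difference 0.44) and at least 1.04-fold before injection (0.05, but -0.04 under cyclic loess). Without a floor the difference in tumour cells was 1.12. The other 3 probe sets of Cd80 were under the floor on all 4 arrays, so the pattern rests on 1 probe set.

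Cd274, whose product is the PD-1 ligand, was under the floor everywhere. Its signals were 60.7 and 58.1 in p65-/- tumour and pre-injection cells, against 51.9 in p65+/+ tumour and 51.0 in p65+/+ pre-injection cells. No fold was taken, and a difference between these arrays was not detectable at this signal.

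Pvr, the ligand of natural killer cell receptors, differed mainly by the tumour state of p65+/+ cells. It had a signal of 356 in p65-/- tumour cells and 440 in p65-/- pre-injection cells, against 658 in p65+/+ tumour cells and 430 in p65+/+ pre-injection cells. The p65+/+ tumour array was the high one and the other 3 lay within 1.24-fold of each other. Pvr was 1.85-fold lower in p65-/- than in p65+/+ tumour cells (log2 difference -0.89), and 6.85% of genes were lower by as much or more. In p65+/+ tumour cells it was 1.53-fold higher than before injection (0.61), and 3.46% of genes were higher by as much or more. The p65-/- tumour change was -0.31, and before injection the genotypes differed by 0.03. None of these reached 2-fold.

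The probe sets of Pvr that reached the floor moved in the same direction, except before injection. Of its 7 probe sets, 6 reached the floor on at least 1 array. Some of the 6 carry a suffix for possible cross-hybridization. All 6 were lower in p65-/- than in p65+/+ tumour cells, from -1.23 to -0.63 on the log2 scale. The lowest, at least 2.34-fold, was the 1 Pvr probe set past 2-fold there. All 6 were higher in p65+/+ tumour than in p65+/+ pre-injection cells, from 0.15 to 0.70. All 6 were lower in p65-/- tumour than in p65-/- pre-injection cells, from -0.44 to -0.21. Before injection they split, with 5 higher and 1 lower in p65-/- cells. The lower one, at -0.64, was also the one past 2-fold in tumour cells and the one with the smallest p65+/+ tumour change, 0.15.

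The galectin gene Lgals1 was far above the floor and hardly differed, while Lgals9 lay near the floor and was low in p65-/- cells. Lgals1 had a signal of 15274 in p65-/- tumour cells, 16605 in p65-/- pre-injection cells, 15986 in p65+/+ tumour cells and 15286 in p65+/+ pre-injection cells. The 4 values lay within 1.09-fold of each other and its second probe set within 1.13-fold. Whether such bright probe sets still respond in proportion to the RNA was not tested. Lgals9 had signals of 54.6 and 75.3 in p65-/- tumour and pre-injection cells, under the floors, against 136 and 102 in p65+/+ tumour and pre-injection cells, above them. It was at least 1.47-fold lower in p65-/- than in p65+/+ tumour cells (log2 difference -0.55, and -1.32 without a floor) and at least 1.16-fold lower before injection (-0.21, but 0.16 after scaling to the 75th percentile). The p65+/+ tumour change was 1.34-fold (0.42). Lgals9 has 1 probe set.

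Set side by side, 3 of the 8 members compared before injection were lower in p65-/- cells and 0 higher, namely Cd24a, Vcam1 and Cd47, beside the 18.1% lower and 2.11% higher of all genes. In tumour cells 2 of 8 were higher and 0 lower, Cd24a and Cd276, beside 2.74% and 5.62%. In the p65-/- tumour change 3 of 7 were higher and 0 lower, again Cd24a, Vcam1 and Cd47, beside 13.9% and 1.5%. In the p65+/+ tumour change 0 of 7 were higher and 1 was lower, Cd276, beside 0.991% and 0.777%. The members, and the gene lists below, were chosen with earlier results of these data known. Their counts beside the shares of all genes therefore only describe and test nothing. These comparisons reuse arrays: the p65-/- pre-injection array enters the first and the third, and the p65+/+ tumour array the second and the fourth. The member medians were -0.09, -0.12, 0.39 and 0.06 on the log2 scale in that order, beside -0.02, 0.01, 0.03 and -0.01 over all genes. When p65-/- tumour cells replaced p65-/- pre-injection cells in the first comparison, 1 of 8 members was higher, Cd24a, and 0 lower, beside 1.89% higher and 3.91% lower of all genes.

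**Figure D3:**
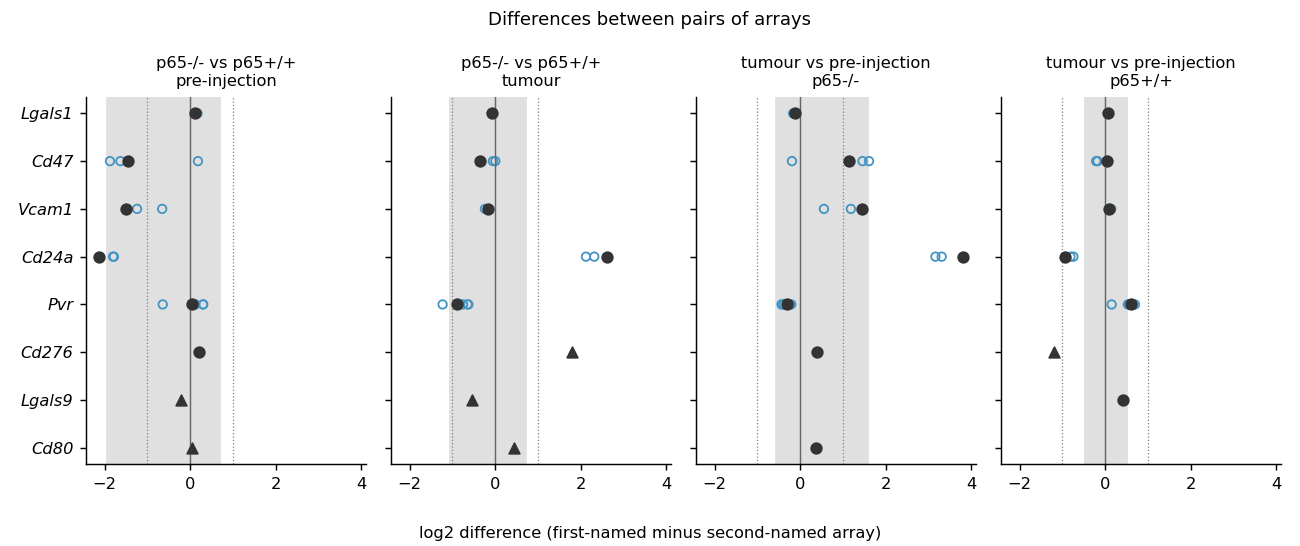
Log2 differences of 8 genes in the 4 comparisons (horizontal axis); black circles are the probe set that stands for the gene, black triangles mark "at least" values, open blue circles are its other probe sets, the grey band holds the 5th to 95th percentile of all genes compared and dotted lines mark 2-fold. Cd24a lies outside the band in all 4 panels, while Vcam1 and Cd47 lie inside it.

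**Figure D4:**
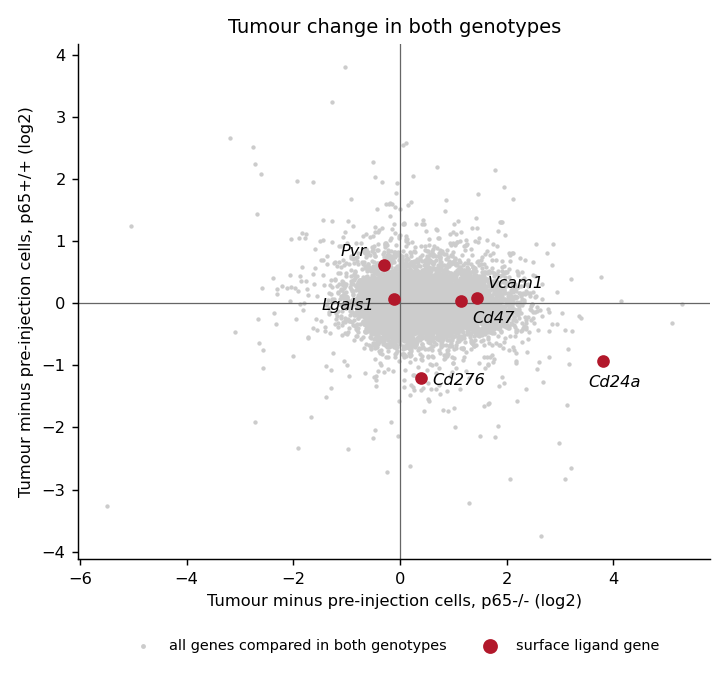
Log2 tumour change in p65-/- cells (horizontal axis) against that in p65+/+ cells (vertical axis), with every gene compared in both genotypes in grey and 6 surface ligand genes in red; the axes use separate arrays. Cd24a stands at 3.81 and -0.93, Cd276 at 0.39 and -1.20, and Pvr at -0.31 and 0.61.

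Genes with a course most like that of a member were sought among 12821 others by the distance between centred log2 signals over the 4 arrays, for the 6 members that ranged over 2-fold or more. Signals were taken without a floor here, so the ranges of Lgals9 and Cd80 and their nearest genes rest in part on signals under the floor. The nearest to Cd24a was Fbln2, a matrix glycoprotein gene, at a distance of 0.07, with signals of 2573 and 178 in p65-/- tumour and pre-injection cells, against 396 in p65+/+ tumour and 768 in p65+/+ pre-injection cells. The next, Gulp1, was at 0.53, so Fbln2 was by far the closer. The nearest to Cd276 was Bhlhe40, a transcription factor gene, at 0.14, followed by Gm15867 at 0.17. For Cd47 they were Wdr37 at 0.02 and Nkrf at 0.03, and for Vcam1 Tardbp and Ipo11 at 0.05 each. For Lgals9 they were Ier3 at 0.08 and Slc39a14 at 0.09, and for Cd80 Nfix and Lama5 at 0.09 each. With 4 points these distances only describe the arrays.

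Other surface ligands and lectins were taken from a list of 62 genes, of which 53 had a probe set. Alternative settings were applied to this list, the regulators and the receptors after the values were seen. Before injection 3 of the 34 compared were higher in p65-/- than in p65+/+ cells and 2 lower, beside 2.11% and 18.1% of all genes. The higher ones were Tnfsf9, the 4-1BB ligand, at 3.05-fold, Thbs1, a secreted ligand of Cd47, at 2.53-fold, and the adhesion gene Cadm1 at 2.34-fold. The lower ones were Alcam, the ligand of CD6, at 6.33-fold, and Nectin3, a partner of Pvr in cell contacts, at 3.53-fold. The higher ones numbered 5 after quantile normalization, 75th percentile scaling or cyclic loess, and 1 with p65-/- tumour cells set against p65+/+ pre-injection cells. Over all genes the higher ones numbered 266 on the deposited scale and 891, 803 and 401 under those scalings, in that order. With p65-/- tumour cells set in, 1.89% of all genes were higher. The log2 differences implied by the authors' deposited table gave 6 higher and 5 lower of 32, and without a floor 4 of 53 were lower. Counts through that table here and below include signals under 300, where its scale was not checked. Shares of all genes were not computed for that table, the other floors or averaged probe sets. In tumour cells, beside 2.74% higher and 5.62% lower of all genes, 2 of 33 were higher in p65-/- cells, Tnfsf9 at least 2.30-fold and Jam3 at 2.19-fold, and 2 were lower, the sialomucin gene Cd34 at 5.15-fold and the galectin gene Lgals3 at 2.49-fold. There the authors' deposited table gave 6 higher and 6 lower of 29, a floor at the 70th percentile gave 0 higher of 21, and without a floor 4 of 53 were lower.

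The tumour changes of that list showed Lgals3 and Thbs1 beside the members. In p65-/- tumour against pre-injection cells, beside 13.9% higher and 1.5% lower of all genes, 2 of 32 were higher, Nectin3 at 2.44-fold and Lgals8 at 2.22-fold, and 2 lower, Cd34 at 5.97-fold and Lgals3 at 2.21-fold. The higher ones numbered 1 after quantile normalization, under cyclic loess or with a floor at the 70th percentile, and 0 after 75th percentile scaling or with probe sets averaged, while the authors' deposited table gave 5 higher and 7 lower. Over all genes the higher ones numbered 1734 on the deposited scale. They were 1207 after quantile normalization, 1375 under cyclic loess and 1110 after 75th percentile scaling. In p65+/+ tumour against pre-injection cells, beside 0.991% higher and 0.777% lower of all genes, 1 of 34 was higher, Thbs1 at 4.61-fold, and 2 lower, Alcam at 2.63-fold and Cd34 at 2.06-fold. The authors' deposited table gave 4 higher and 4 lower of 30. Lgals3 had signals of 3392 and 7478 in p65-/- tumour and pre-injection cells, against 8461 and 4451 in p65+/+ tumour and pre-injection cells, so the low tumour array was that of p65-/- cells and the high one that of p65+/+ cells. Thbs1 had signals of 4418 and 2746 in p65-/- tumour and pre-injection cells, against 5008 in p65+/+ tumour and 1087 in p65+/+ pre-injection cells. Here the p65+/+ pre-injection array was the low one.

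Genes that regulate, shed or modify the members made up a list of 25, with 23 on the array. Rela, which the p65-/- cells lack, is in this list, so its lower call in both genotype comparisons was fixed by the design. Of all genes compared 18.1% were lower before injection. Of the 20 compared here 8 were lower in p65-/- than in p65+/+ cells, Rela included, and 0 higher. Besides Rela they were the cytokine signalling kinase genes Jak2, at least 4.68-fold, and Jak1, 2.81-fold, the sheddase genes Adam10 and Adam17, 3.83-fold and 2.30-fold, the receptor genes Il1r1 and Ifngr2, 3.50-fold and 2.49-fold, and the transcription factor gene Stat3, 2.30-fold lower. The count of 8 was 5 after quantile normalization or 75th percentile scaling, and 4 with p65-/- tumour cells set against p65+/+ pre-injection cells. Over all genes the lower ones fell from 2283 to 1559 and 1506 under those scalings, and were 3.91% with p65-/- tumour cells set in. In tumour cells, where 5.62% of all genes were lower, 4 of 22 were lower and 0 higher in p65-/- cells, namely Rela, Ifngr2 at 2.96-fold, the NF-kB subunit gene Relb at least 2.55-fold and Il1r1 at 2.01-fold. In the p65-/- tumour change, where 13.9% of all genes were higher, 6 of 20 were higher and 0 lower, namely Jak1, Adam10, Il1r1, Adam17 and Cmtm4, from 2.17-fold to 2.51-fold, and Jak2, at least 2.26-fold. The count was 2 after quantile normalization or 75th percentile scaling, where the higher ones of all genes fell from 1734 to 1207 and 1110. In the p65+/+ tumour change 0 of 22 were higher and 0 lower, beside 0.991% and 0.777% of all genes. After median centring or without a floor 1 was higher. Cmtm6, which keeps PD-L1 on the surface, and Qpctl, which modifies Cd47, stayed within 2-fold in all 4 comparisons.

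Markers of other cells that carry these ligands were read on the same arrays. Of 9 macrophage markers, 4, 2, 3 and 2 were at or above the floor in p65-/- tumour, p65-/- pre-injection, p65+/+ tumour and p65+/+ pre-injection cells, and their summed signals were 1125, 1067, 1451 and 1388. Ptprc, Adgre1, Cd68 and Lyz2 were under the floor on all 4 arrays, as was Itgam. Cd14 had 220 in p65-/- tumour cells, 330 in p65-/- pre-injection cells, 809 in p65+/+ tumour cells and 743 in p65+/+ pre-injection cells, so it was lowest in p65-/- tumour cells, and Csf1r had 198 to 243. Tyrobp, in contrast, had 278 in p65-/- tumour cells and 55.2 to 63.7 on the other arrays, and Fcer1g stayed near the floor at 87.7 to 95.6. Of 6 endothelial markers 1, Pecam1, reached the floor, in p65-/- cells alone, with 99.9 and 94.4, and the summed signals were 319, 345, 310 and 294 in the same order. Of 4 epithelial markers, Krt18 reached the floor in p65-/- tumour cells alone, with a signal of 127, and Krt8 in both p65-/- groups, with 93.8 and 94.3, while Epcam and Cdh1 stayed under it. The summed epithelial signals were 309, 248, 209 and 230. Of 5 lymphocyte and granulocyte markers with a probe set, Cd3e alone was above the floor, at 582, 671, 454 and 475, and the summed signals were 870, 941, 700 and 731. Among these markers, some were at or above the floor on the array on which Cd24a was highest. Of those, Tyrobp and Krt18 were at their highest there, as were Csf1r, Fcer1g and Pecam1 by small margins. Cd14 was at its lowest there, and Krt8 and Cd3e were neither highest nor lowest. The part of other cells in the Cd24a result was not tested.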

How the data were processed

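Affymetrix arrays of biotin-labelled cRNA from 6 ug of Trizol-isolated total RNA were read for 4 samples, per the labels. The deposited series matrix holds 1 linear signal intensity per probe set, and the labels do not say how the authors summarised and scaled it. Scanner intensities, not normalized per the file headers, were deposited for each array and used for no result. A table deposited by the authors as log2 ratios was set against the series matrix and holds a signed quotient of log2 levels, a score matched within 0.02 by 76.0% to 94.7% of probe sets with signals of at least 300 on both arrays. It served as an alternative, through the log2 difference it implies, also at signals under 300, where the match was not checked.

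Probe sets were named by the platform annotation of 2016: 34945 had 1 gene, 932 several and 9160 none, and the last 2 kinds were left out. A gene was represented by its probe set with the highest mean signal, those with cross-hybridization suffixes only where no other existed. Signals were log2-transformed (minimum 1) with no further scaling, floored at each array's median and counted at 2-fold. Tools were Python 3.11.15, pandas 2.3.3 and limma 3.58.1 for the normalization alternatives. All 10 members are named, with listed genes past 2-fold and the 2 nearest genes per member. Members and lists were chosen with earlier results of these data known. Alternatives were 4 scalings, 2 floors, the mean of probe sets, a 1.5-fold threshold, the authors' table and 1 substituted array.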

Additional observations from a re-analysis of the deposited data

Results flagged for a closer look

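Cd24a moved in opposite directions under the same contrast, by more than the spread between probe sets of a gene. That spread is not the error between arrays. Both ways of pairing the arrays use the same 4 signals and hold 1 difference of differences, 4.74 on the log2 scale. The log2 tumour change of Cd24a was 3.81 in p65-/- cells and -0.93 in p65+/+ cells. Its log2 genotype difference, p65-/- minus p65+/+, was 2.61 in tumour cells and -2.13 in pre-injection cells. With 1 array per group these differences were not tested.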

How the results depend on the processing

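Of 107 recomputed counts and medians over the members, 95 stayed within 1.5 times the reported count or within the spread between probe sets, and 12 moved. No reported median reached 2-fold, and medians near 0 could change sign. The one before injection, -0.09, became 0.28 after scaling to the 75th percentile. When p65-/- tumour cells replaced p65-/- pre-injection cells, 1 member was higher and 0 lower than in p65+/+ pre-injection cells, and the Cd24a difference turned to 1.68. With the floor at the 70th percentile, where 6 members could be compared, the median before injection was -0.72, 1 member was higher in p65-/- tumour cells and 0 were lower in the p65+/+ tumour change. The authors' deposited table gave medians of -0.73 before injection and 1.09 in the p65-/- tumour change and 1 member higher in p65-/- tumour cells, over 5 to 7 members. Without a floor 1 member, Lgals9, was lower in p65-/- tumour cells. At 1.5-fold, 1 member was lower in p65-/- tumour cells, and 1 was higher and 2 lower in the p65+/+ tumour change. Of 236 single-gene values 227 stayed within the spread between probe sets, 8 moved by more and 1 turned the sign of a 2-fold difference, while smaller differences near 0 could change sign within that spread. The spread used is the pooled one, wider than that of the median gene. A value counted as within it could still lose 2-fold, as Cd47 did in the p65-/- tumour change. Among the 2-fold differences, Cd24a kept 2-fold under 8 of 8 alternatives in tumour cells and in the p65-/- tumour change, as did Vcam1 in the p65-/- tumour change, and Cd47 did under 5 of 8. Before injection Cd24a, Vcam1 and Cd47 kept it under 8 of 9, the exception being the substituted array. Signal over background limits Cd274, Icam1, Cd80 and Lgals9. No paired analysis was possible because each comparison sets 1 array against 1, and a tumour change pooled over both genotypes, for which the genotype could serve as a block with 1 residual degree of freedom, was not fitted.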

Other observations

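Receptors of these ligands were also on the arrays. Of 14 listed, 13 had a probe set, and most of those specific to immune cells were under the floor on all 4 arrays, among them Itgb2, Itgam, Cd28, Ctla4, Havcr2, Cd96 and Cd226. Pdcd1 and Itgal reached it in p65-/- cells alone. In p65-/- tumour and pre-injection cells Pdcd1 had 101 and 93.2, and Itgal 97.7 and 93.6. Siglecg was above the floor on all 4 arrays. Itgb1, the beta chain of the Vcam1 receptor VLA-4 and of many matrix receptors, had signals of 2775 and 910 in p65-/- tumour and pre-injection cells, against 2053 in p65+/+ tumour and 2416 in p65+/+ pre-injection cells, and was 2.66-fold lower in p65-/- than in p65+/+ pre-injection cells and 3.05-fold higher in p65-/- tumour than in p65-/- pre-injection cells. It was the single receptor gene past 2-fold before injection, where the count was 0 after quantile normalization and with p65-/- tumour cells set against p65+/+ pre-injection cells, and the authors' deposited table gave 1 higher and 2 lower of 3. In the p65-/- tumour change that table gave 2 higher and 2 lower of 5, and in the p65+/+ tumour change 2 lower of 3. Sirpa, the gene of the Cd47 receptor, had signals of 283 and 261 in p65-/- tumour and pre-injection cells, against 228 in p65+/+ tumour and 257 in p65+/+ pre-injection cells. Siglecg, the gene of the Cd24a receptor, was listed at 233 and 298 in p65-/- tumour and pre-injection cells, against 195 in p65+/+ tumour and 216 in p65+/+ pre-injection cells.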
